A study of Mus musculus with 6 samples.

Results

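The insulin-like growth factor (IGF) genes examined here encode 2 ligands (Igf1 and Igf2), 2 receptors (Igf1r and Igf2r) and 6 binding or binding-related proteins (Igfbp2, Igfbp3, Igfbp4, Igfbp5, Igfbp7 and Igfbpl1). These 10 genes are among 18193 named on the array, and they were chosen by symbol with the differences between the study's groups already known, so those differences are given as a description and carry no p-value. Every probe set that names exactly 1 gene, that gene being one of the 10, was kept. There were 29 such probe sets among 45037, of which 27 lay above a filter that removed the lowest 40% of probe sets by mean signal. The 2 that did not are both for Igfbp7, and 1 further probe set was left out because it names Igf2r together with another gene.

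IGF1 and IGF2 are secreted growth factors that promote growth of the embryo. Both signal through the type 1 receptor IGF1R, a tyrosine kinase that acts through insulin receptor substrates on the PI3K-AKT and ERK cascades, whereas IGF2R takes up IGF2 and delivers it to lysosomes. The binding proteins hold the ligands outside the cell and can limit or prolong their access to the receptor. In the embryonic heart IGF2 made by the outer layer of the heart is known to promote growth of the ventricular wall.

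Signal was measured on 6 Affymetrix mouse expression arrays of hearts from C57BL/6 embryos at E12.5, 3 labelled wildtype and 3 labelled Rhau KO (n = 3 per label throughout). Rhau is an older name of Dhx36, a helicase that unwinds G-quadruplexes, structures folded from guanine-rich nucleic acid. The promoter that drove the deletion, the cells it reached and the deleted part of the gene are not given in the sources used here. By the design text 3 hearts per group gave the 6 RNA samples, which reads as a single heart on each array, a reading that the sex-linked signal given next goes against. Whether the hearts came from separate litters is not given, so errors measure the spread between these arrays only.

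The labels carry a doubt that touches every direction below. Dhx36 was higher, not lower, in the arrays labelled Rhau KO, by 1.41 on the log2 scale (SE 0.109, limma adjusted p = 3.35e-05), and its other probe sets were higher too, by 1.10 and 0.90. A probe set outside the deleted part would check nothing. Nkx2-5, a cardiac transcription factor gene, separated the labels by -1.29 (SE 0.0602, adjusted p = 2.15e-06), at 12.10 to 12.24 under the wildtype label and 10.83 to 10.97 under the Rhau KO label. Sex-linked signal also differed with the label: the mean of 3 Y-linked genes, as a percentage of the highest array, ran from 1.23 to 39.3 under the wildtype label and from 59.6 to 100 under the Rhau KO label. In 3 arrays (replicate 3 labelled wildtype, replicates 1 and 2 labelled Rhau KO) both Y-linked signal and Xist, the RNA of the inactive X chromosome, were above 10% of their highest level. Xist is made in female cells and Y-linked genes are expressed in male ones, so these 3 arrays do not read as 1 heart of a single sex, and what one replicate holds is not known; the cause was not tested. Cardiomyocyte markers were strong in every array, with Tnnt2, cardiac troponin T, between 14.93 and 15.17. Values below are log2 MAS5 signals, differences are Rhau KO label minus wildtype label, and "called" means an adjusted p under 0.05 in limma fitted over all 27022 probe sets above the filter. A gene with several probe sets is represented in counts of genes by its brightest. In that fit 6.75% of probe sets were called higher and 6.88% called lower, and every Rhau KO array lay above every wildtype array for 19.4% and below for 14.5%.

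Because the helicase named in the labels acts on guanine-rich sequence, the 250 bases upstream of the members' transcription starts were searched on both strands for 4 runs of at least 3 G separated by 1 to 7 bases of any kind. RefSeq promoters (GRCm38.p6) were matched by symbol for 9 of the 10 genes, with 13 start sites among them; Igfbpl1 had no entry. The pattern was found upstream of 5 of the 9 genes and in 6 of the 13 windows, against 18.5% of 27025 genes and 16.7% of 32851 windows in the whole table. The members' windows held between 47.6% and 77.6% G and C, where the median window held 52.4%. The pattern lay on the gene's strand for Igf1r, Igfbp7, 1 start site of Igfbp2 and 1 of Igf2. It lay on the opposite strand for Igfbp4 and another start site of Igf2. The other start site of Igfbp2 and the remaining ones of Igf2 held no match. The windows of Igf1, Igf2r, Igfbp3 and Igfbp5 did not hold these letters. Those of Igfbp2 (chr1:72824230-72824479, plus strand), Igfbp7 (chr5:77408046-77408295, minus strand) and Igfbp5 (chr1:72874866-72875115, minus strand) are shown because the first was higher, the second lower and the third higher without the pattern; capitals mark the pattern and each line runs 5′ to 3′ along the gene.

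Igfbp2: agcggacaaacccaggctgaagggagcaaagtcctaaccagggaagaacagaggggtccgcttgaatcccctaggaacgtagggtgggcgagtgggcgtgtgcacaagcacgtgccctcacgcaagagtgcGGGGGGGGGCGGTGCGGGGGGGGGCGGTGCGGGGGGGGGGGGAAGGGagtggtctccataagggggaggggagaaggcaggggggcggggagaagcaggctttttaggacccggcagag

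Igfbp7: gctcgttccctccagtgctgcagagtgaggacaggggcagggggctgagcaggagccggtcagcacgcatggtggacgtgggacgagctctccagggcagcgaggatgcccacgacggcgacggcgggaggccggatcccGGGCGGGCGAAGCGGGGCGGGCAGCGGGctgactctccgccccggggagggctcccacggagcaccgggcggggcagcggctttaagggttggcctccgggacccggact

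Igfbp5: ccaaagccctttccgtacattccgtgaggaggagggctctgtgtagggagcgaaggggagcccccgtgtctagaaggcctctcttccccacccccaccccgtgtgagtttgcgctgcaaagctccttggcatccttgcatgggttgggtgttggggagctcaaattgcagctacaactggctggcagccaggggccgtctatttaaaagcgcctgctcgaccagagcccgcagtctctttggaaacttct

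Genes with the pattern were thus found among those called higher (Igfbp2, Igfbp4), called lower (Igfbp7) and neither by their brightest probe set (Igf2, Igf1r). A match of letters is not evidence of a folded structure or of binding.

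Of the 27 tested probe sets of the family, 12 were called higher and 1 lower, and 14 were not called. The arrays of the labels did not overlap for 19 of them, with 16 above and 3 below. Their median difference was 0.27, where the median of all tested probe sets was 0.04. Taking the brightest probe set of each gene, 5 of the 10 genes were called higher (Igf1, Igfbp2, Igfbp4, Igfbp5 and Igfbpl1) and 1 lower (Igfbp7), beside 6.77% and 9.75% of the 12416 genes so represented. Since the family was picked with these differences in view, nothing is read from its counts against those shares.

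**Figure D1:**
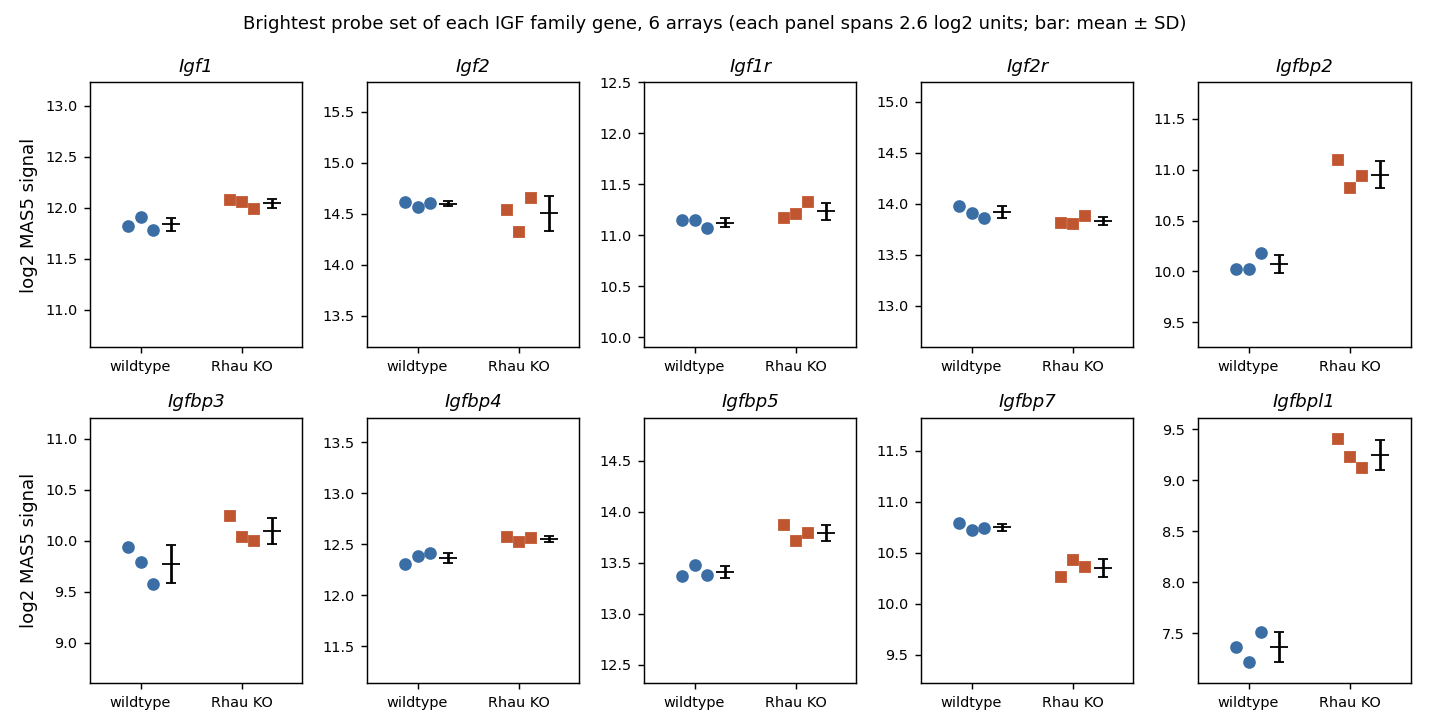
Log2 MAS5 signal of the brightest probe set of each of the 10 genes on the 3 arrays labelled wildtype (circles) and the 3 labelled Rhau KO (squares), with the mean ± SD of each label as a bar; every panel spans the same 2.6 log2 units. Igfbpl1 and Igfbp2 show the widest gaps, Igfbp7 is the gene whose Rhau KO arrays lie below, and the labels overlap for Igf2 and Igf2r.

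The ligands differed little. Igf2 gave a strong signal, at 14.62, 14.57 and 14.61 under the wildtype label and at 14.54, 14.32 and 14.66 under the Rhau KO label. The labels overlapped, with replicate 2 labelled Rhau KO lowest and replicate 3 highest of all 6, and the difference was -0.09 (SE 0.0733). The highest value on any array was 15.21 and saturation was not tested, so a difference between strong signals such as this one may be understated. The second Igf2 probe set, at 10.31 ± 0.16 and 10.50 ± 0.21 (SD), differed by 0.19 (SE 0.11) with overlap.

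Igf1 was slightly higher under the Rhau KO label. Its brightest probe set stood at 11.82, 11.91 and 11.78 in the wildtype arrays and at 12.08, 12.06 and 11.99 in the Rhau KO arrays. The labels did not overlap, and the difference of 0.21 (SE 0.0544) was a 1.15-fold one. The other 3 probe sets of Igf1 differed by 0.14 with overlap and no call, by 0.29 without overlap and no call, and by 0.31 with a call that was kept in 1 of 6 fits with an array left out and lost with median centring at 0.24. The call of the brightest was kept in 2 of the 6 fits that each left out 1 array, with differences from 0.18 to 0.25, and was lost with arrays centred on their median, where it stood at 0.14.

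The receptor probe sets split. Igf1r, the signalling receptor, is read by 5 probe sets, whose differences ran from -0.57 to 0.45. Its brightest was at 11.15, 11.15 and 11.07 in the wildtype arrays and 11.17, 11.21 and 11.33 in the Rhau KO arrays, a difference of 0.11 (SE 0.0613). The second brightest was at 9.90, 10.02 and 10.01 against 10.43, 10.43 and 10.41. This one was called higher, with a gap of 0.39 between the labels, a difference of 0.45 (SE 0.0636) and the call kept with each array left out. The fourth brightest lay the other way, at 7.54, 7.77 and 8.04 against 7.18, 6.96 and 7.49. Its labels did not overlap either, the difference was -0.57 (SE 0.185), and it was not called, although it was with median centring (-0.64), with quantile normalization (-0.65) and without replicate 3 labelled Rhau KO (-0.71). It stood at -1.15 (SE 0.369) with Y-linked signal as a covariate and at -0.97 in the 3 arrays with both kinds of sex-linked signal, uncalled in both. The remaining probe sets differed by -0.08 and 0.18 with overlap. Averaged over its probe sets Igf1r differed by 0.02 (SE 0.0793). Igf2r, the uptake receptor, was at 13.98, 13.91 and 13.86 against 13.81, 13.80 and 13.88, a difference of -0.09 (SE 0.0479), and its other probe set differed by -0.08 (SE 0.0454). Neither was called. Both read near the top of the scale.

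**Figure D2:**
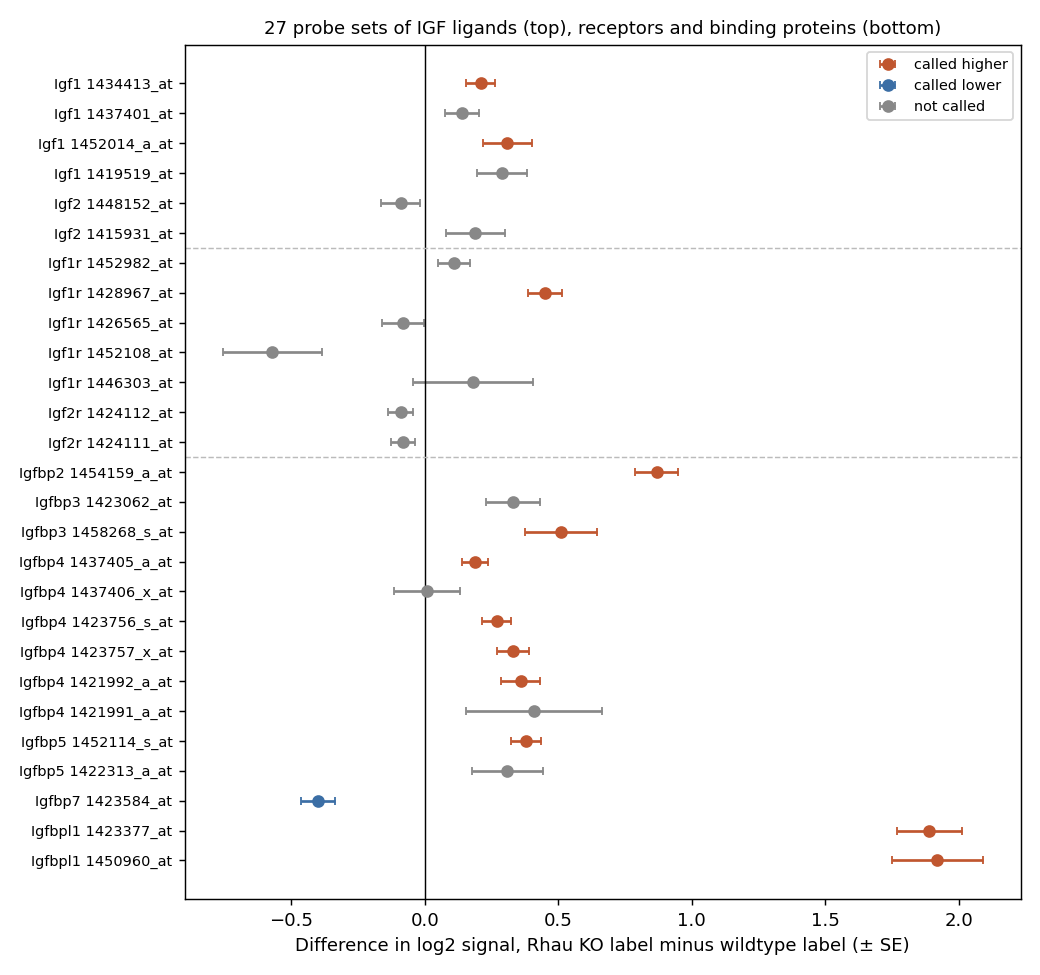
Difference in log2 signal (± SE) of each of the 27 tested probe sets, with ligands, receptors and binding proteins separated by dashed lines and coloured by whether limma called them. Binding proteins make up 9 of the 12 called higher and 14 of the 27 tested. The probe sets of Igf1r lie on both sides of 0, and both probe sets of Igfbpl1 lie near 1.9.

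Of the 14 tested probe sets of binding proteins 9 were called higher and 1 lower, with a median of 0.34. Over all tested probe sets 6.75% were called higher and 6.88% lower. Of the 9, 4 read Igfbp4 and 2 read Igfbpl1, so they are not separate genes. Igfbpl1, a protein related to the binding proteins and known from developing nervous tissue, differed most. Its brightest probe set was at 7.37, 7.22 and 7.51 in the wildtype arrays and 9.41, 9.23 and 9.12 in the Rhau KO arrays. The lowest Rhau KO array lay 1.61 above the highest wildtype array, and the difference of 1.89 (SE 0.123) was 3.70-fold. The second probe set was at 6.23 ± 0.0982 against 8.15 ± 0.207 (SD), with a gap of 1.68 between the labels and a difference of 1.92 (SE 0.169). Both were called with each array left out, between 1.80 and 1.99, and in the 3 arrays that carry both Xist and Y-linked signal, at 1.81 and 1.91. With a pseudocount of 64 added to the linear signals, which shrinks differences of dim probe sets, they stood at 1.56 and 1.32 and kept their calls.

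The genes whose pattern over the 6 arrays was most like that of Igfbpl1, by Pearson's r among the 12416 genes, were Mtmr7 (r = 0.997), Bpnt1 (r = 0.997) and Itga9 (r = 0.997). These arrays share their labels, and the step between labels sets most of such an r, so the values only describe likeness. Mtmr7 differed by 1.43, Itga9, an integrin subunit, by 0.83 and Bpnt1 by 0.33, and none of the 3 overlapped between labels. In the same arrays 3 of 6 tested neural crest and neuronal markers were called higher, Ednrb by 0.78 (limma adjusted p = 2.56e-05), Elavl4 by 0.63 (adjusted p = 0.0441) and Gap43 by 0.32 (adjusted p = 0.0415). Their summed linear signal over 6 genes was between 3126 and 3236 under the wildtype label and between 4775 and 4979 under the Rhau KO label. Most of that sum is Ednrb: without it, a step chosen after the values were seen, the other 5 genes summed to 1043 to 1136 against 1226 to 1282. Sox10, a marker gene of neural crest cells, was between 6.04 and 6.76 in all arrays, close to the filter at 5.90, and differed by 0.04. The neuronal genes Tubb3 and Stmn2 differed by -0.38 and 0.35 without a call (adjusted p = 0.412 and 0.137). The part of these cells in the Igfbpl1 difference was not tested. In RNA of whole tissue more cells of a type and more RNA per cell cannot be told apart.

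Igfbp2, a binding protein abundant in embryonic tissue, was second. It stood at 10.02, 10.02 and 10.18 in the wildtype arrays and 11.09, 10.82 and 10.94 in the Rhau KO arrays. No array overlapped, and the difference of 0.87 (SE 0.0805), a 1.83-fold one, was called with each array left out, between 0.80 and 0.94. A single probe set reads this gene. Igfbp5, which binds to extracellular matrix, is its neighbour among the protein-coding genes of RefSeq. It was at 13.37, 13.48 and 13.38 against 13.87, 13.71 and 13.79, a difference of 0.38 (SE 0.055) called with each array left out. The second Igfbp5 probe set lay the same way, at 0.31 (SE 0.134), without overlap and without a call.

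Igfbp4 was modestly higher on most of its 6 probe sets. The brightest was at 12.31, 12.38 and 12.41 against 12.57, 12.52 and 12.56, a difference of 0.19 (SE 0.0485) whose call was kept in 1 of 6 fits with an array left out and lost at 0.12 with median centring. A further 3 probe sets differed by 0.27, 0.33 and 0.36 and were called with each array left out, the first of these losing its call with median centring at 0.21. The sixth in signal varied most, at 7.19 ± 0.53 and 7.60 ± 0.29 (SD). The second brightest differed by 0.01 (SE 0.124), and its replicate 2 labelled Rhau KO was at 11.67 where the other two were at 12.15 and 12.28. Without that array it was called, at 0.20, whereas without replicate 3 labelled Rhau KO it stood at -0.11 and with median centring at -0.06, both uncalled. By their names this probe set and the one at 0.33 are of a kind that can also bind other transcripts. The one at 0.27 is by its name of a kind shared between transcripts, as is the brightest probe set of Igfbp5.

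Igfbp3, the main carrier of IGFs in serum, was at 9.77 ± 0.183 against 10.09 ± 0.13 (SD) on its brightest probe set. The labels came within 0.06 of each other, and the difference of 0.33 (SE 0.102) was not called. Its second probe set was at 8.99, 8.70 and 8.95 against 9.69, 9.29 and 9.19 and was called at 0.51 (SE 0.135). The call was kept in 2 of 6 fits with an array left out and lost with median centring at 0.44. By its name this second probe set is of the kind shared between transcripts. Igfbp1, its neighbour in the genome and a binding protein of liver, lay below the filter at 1.14 to 4.38.

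Igfbp7, a matrix protein made by vessel walls that binds IGFs weakly, was the 1 binding protein called lower. It was at 10.79, 10.72 and 10.74 in the wildtype arrays and 10.26, 10.43 and 10.36 in the Rhau KO arrays. Every Rhau KO array was lower, and the difference of -0.40 (SE 0.0643), 1.32-fold, was called with each array left out, between -0.43 and -0.35. The 2 probe sets below the filter overlapped between labels, at 5.33 ± 1.13 against 5.69 ± 0.16 and at 3.20 ± 0.54 against 3.73 ± 0.12 (SD). In these arrays 5 of 12 endothelial and endocardial markers were called higher and 0 lower, among them Kdr by 0.63 (adjusted p = 0.0043) and Cdh5 by 0.50 (adjusted p = 0.00399). The 7 not called differed by between -0.11 (Sox17) and 0.20 (Flt1), with Pecam1 at 0.07, Eng at 0.04 and Emcn at -0.03. The summed linear signal of the 12 was 13183 to 14318 under the wildtype label and 15164 to 16484 under the Rhau KO label. The part of these cells in the Igfbp7 difference was not tested.

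**Figure D3:**
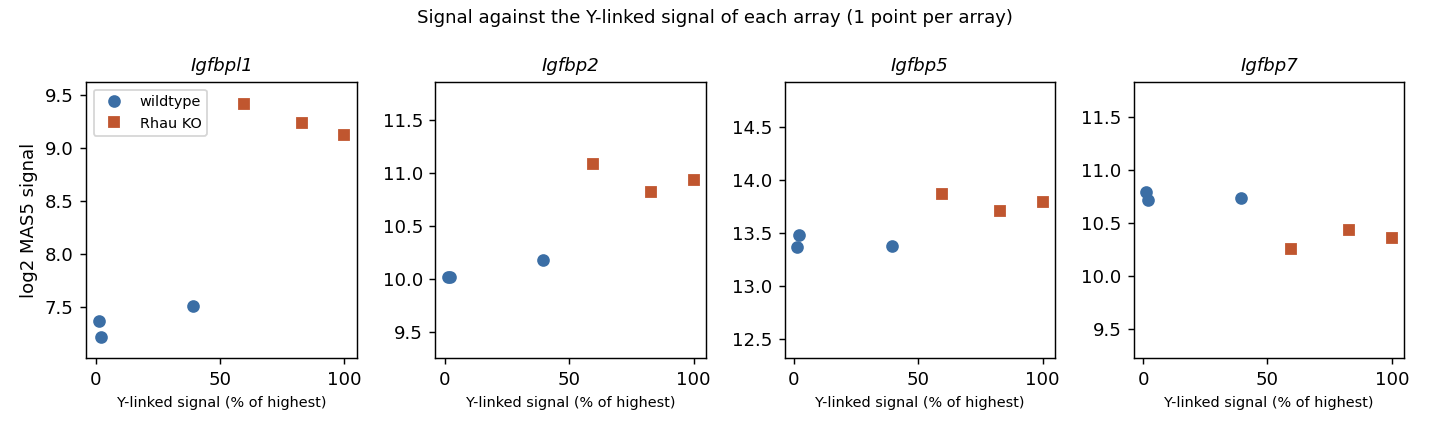
Log2 signal of Igfbpl1, Igfbp2, Igfbp5 and Igfbp7 against Y-linked signal (mean of 3 genes, as a percentage of the highest array), with 1 point per array. Replicate 3 labelled wildtype, at 39.3% Y-linked signal, sits with the other wildtype arrays in all 4 panels.

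Sex-linked signal moved with the labels, so these values were also set against it. With Y-linked signal added to the fit as a covariate, Igfbpl1 stood at 1.90 (SE 0.284) and kept its call on the brightest probe set, the only one of the 27 to do so. Igfbp2 stood at 0.85 (SE 0.185), Igfbp5 at 0.49 (SE 0.124) and Igfbp7 at -0.47 (SE 0.146), each with a larger error and no call. The values of Igfbp5 and Igfbp7 moved away from 0 by more than the SD within labels. The called Igf1r probe set was at 0.42 (SE 0.146), and the brightest Igfbp3 probe set at 0.80 (SE 0.159). The second brightest Igf1 probe set turned from 0.14 to -0.13. In the 3 arrays with both kinds of signal, where the wildtype label keeps 1 array that is assumed to vary like the others, Igfbp2 differed by 0.77 with a call, and Igfbp5 by 0.41 and Igfbp7 by -0.39 without one.

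Other cell types were followed with marker lists. Of 9 erythroid markers 8 were called lower and 0 higher, with a median of -1.13 and summed linear signals of 34494 to 39990 against 19641 to 26912. Of 10 macrophage markers 2 were called higher, Lyz2 by 2.98 (adjusted p = 4.87e-07) and Mrc1 by 0.43 (adjusted p = 0.023), with sums of 3014 to 3233 against 4123 to 5026. Lyz2 makes up most of that difference, since the other 9 genes summed to 2849 to 3076 against 3004 to 3688, which overlap. The 8 not called differed by between 0.04 (Csf1r, adjusted p = 0.852) and 0.39 (C1qc, adjusted p = 0.15), with Adgre1 at 0.18 (adjusted p = 0.385). The median of the 10 macrophage markers was 0.32, and 4 higher ones had an unadjusted p under 0.05 in limma. No epicardial marker of 8 was called by limma, while 3 lower ones had an unadjusted p under 0.05, with sums of 11805 to 13157 against 10957 to 11758. Of 10 cushion, mesenchyme and fibroblast markers Dcn was called higher and Pdgfrb lower, with sums of 55114 to 56856 against 52297 to 57075. Of 12 cardiomyocyte markers 4 were called lower, with sums of 306214 to 318480 against 267225 to 308807. Of 3 tested skeletal muscle markers 2 were called lower, Tnnt3 with a difference of -3.89 (adjusted p = 3.32e-06) and Tnni2 with -0.89 (adjusted p = 0.000207). The third, Myh3, differed by 0.63 without a call (adjusted p = 0.544). Myod1, Myog, Myf5 and Pax7 lay below the filter. The skeletal muscle sums were 4330 to 5098 against 1591 to 1996, and Tnnt3 and Tnni2 make up most of them. Liver markers were near the bottom of the scale, with Alb, Afp, Apoa1, Fgb and Ahsg below the filter and sums of 404 to 512 against 355 to 584. Whether these cells contribute to the differences of the IGF genes was not tested.

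Genes around and downstream of the receptors were then counted. Of 70 other genes of the pathway listed by role, 51 were tested, and 2 were called higher and 7 lower, with a median of -0.07 where all genes had 0.01. These are 3.92% and 13.7% of the tested pathway genes, beside 6.77% and 9.75% of all genes. With Y-linked signal as a covariate none of these 9 calls was kept. Among 18 genes of the PI3K, AKT and mTOR cascade Pik3r1, the regulatory subunit of PI3K, rose by 0.49 (SE 0.0845, adjusted p = 0.00393), from 9.24, 9.25 and 9.13 to 9.80, 9.57 and 9.73. Pdpk1, the kinase that activates AKT, changed by -0.30 (SE 0.0553, adjusted p = 0.00594), the translation repressor gene Eif4ebp1 by -0.26 (adjusted p = 0.00529) and Gsk3b by -0.23 (adjusted p = 0.0248). Each of these reads on the brightest probe set. Other probe sets of Pdpk1 (-0.05), Gsk3b (-0.07 to 0.22) and Eif4ebp1 (-0.15 and 0.21) were not called, while another of Pik3r1 was, at 0.62. A further tested probe set of Pik3r1 was not called, at 0.14 (adjusted p = 0.681). Gsk3b kept its call in 2 of 6 fits with an array left out.

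Receptor substrates and adaptors had 2 of 11 genes called lower and 0 higher by limma, with 2 higher at an unadjusted p under 0.05. Grb14, an adaptor that inhibits the insulin receptor, was at 11.70, 11.55 and 11.39 in the wildtype arrays and 10.90, 10.89 and 10.92 in the Rhau KO arrays. It fell by 0.65 (SE 0.0745, adjusted p = 0.000433) and kept this call with each array left out. The adaptor gene Sh2b1 changed by -0.39 (SE 0.0992, adjusted p = 0.0257), a call kept in 3 of 6 fits with an array left out. The substrates Irs1 and Irs2 differed by 0.18 and 0.33 without a call (adjusted p = 0.12 and 0.19), and Insr, the insulin receptor, by -0.01 (adjusted p = 0.968). The imprinted inhibitor gene Grb10 differed by -0.07 on its brightest probe set, at 13.96, and by 0.42 with a call on another (adjusted p = 0.0162). None of the 5 tested genes of the ERK cascade was called by limma, while 1 higher and 1 lower had an unadjusted p under 0.05.

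Proteases that cut the binding proteins, and the stanniocalcins that inhibit such proteases, had 1 gene higher and 1 lower of 10. Stc1, a stanniocalcin, rose by 0.54 (SE 0.149, adjusted p = 0.0389), from 7.84, 7.84 and 7.75 to 8.63, 8.36 and 8.05, and kept this call in 1 of 6 fits with an array left out but not with median centring (adjusted p = 0.0695). Stc2 differed by -0.59 without a call (adjusted p = 0.127) and the protease gene Pappa by -0.11 (adjusted p = 0.66). Ctsd, a lysosomal protease, fell by 0.43 (SE 0.0491, adjusted p = 0.000423) and did so with each array left out.

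At the Igf2 locus the antisense transcript Igf2os was at 9.30, 9.34 and 9.48 against 9.07, 8.93 and 9.05. It fell by 0.36 (SE 0.0872, adjusted p = 0.0222), with the call kept in 3 of 6 fits with an array left out, while Igf2 itself was not called. Among the proteins that bind Igf2 mRNA, Igf2bp1 differed by -0.12 (adjusted p = 0.152) and Igf2bp3 by 0.06 (adjusted p = 0.573). Igfbp6 differed by -0.17 (adjusted p = 0.725) close to the filter. Of 6 tested relatives that carry a binding-protein domain but are named otherwise, Ccn4, a matrix signalling protein induced by Wnt, rose by 0.29 (SE 0.0596, adjusted p = 0.00959), with adjusted p = 0.0556 under median centring, and 5 were not called. H19 and Igf2bp2 were not analysed here.

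**Figure D4:**
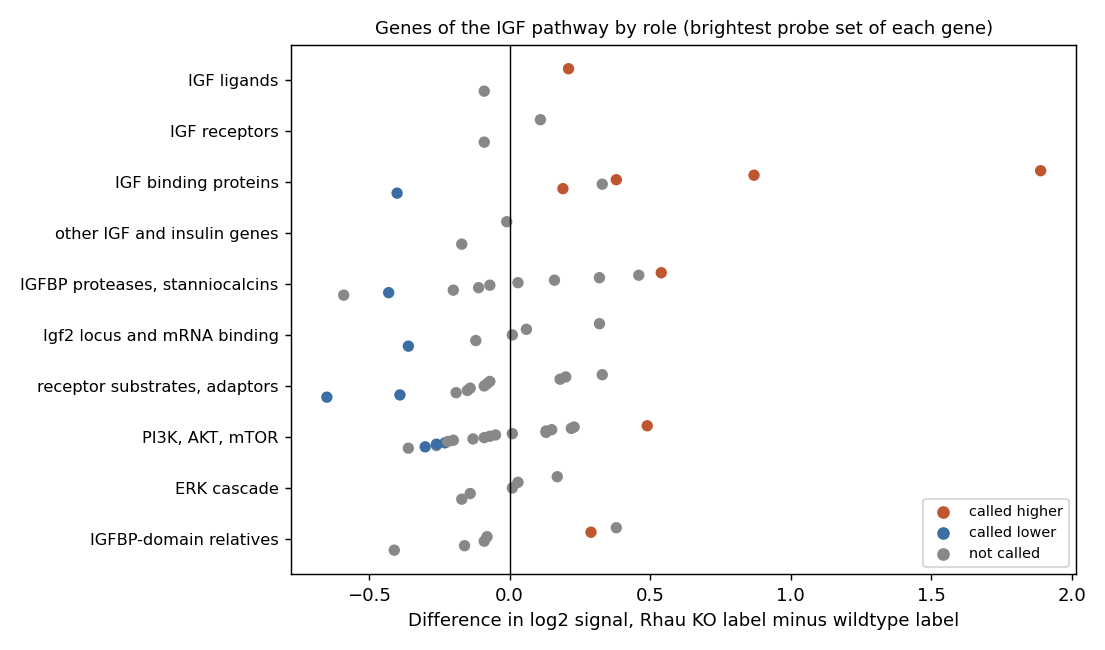
Difference in log2 signal (Rhau KO label minus wildtype label) of the brightest probe set of each tested gene, by role, coloured by whether limma called it. Binding proteins reach 1.89, whereas the 51 genes of the 6 other pathway lists lie between -0.65 and 0.54.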

How the data were processed

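Total RNA of E12.5 hearts was amplified and biotin-labelled with a 3′ IVT kit, per the labels' protocols. The deposited values are log2 signals that the authors made with MAS5, per the submitters' processing notes (version not given in the sources used here). Linear signals had a 2% trimmed mean of 500 on every array, so arrays had been scaled globally, and medians ran from 6.68 to 6.80. Values were used as deposited, after leaving out 64 control probe sets. The platform annotation named 1 gene for 34945 probe sets, several for 932 and none for 9160, and symbols were updated through Entrez identifiers (34741 in RefSeq, GRCm38.p6).

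Probe sets above the lowest 40% by mean (log2 5.90) were fitted with limma 3.58.1 in R 4.3.3 (lmFit, eBayes with trend), with Benjamini-Hochberg adjustment over 27022 probe sets, two-sided. The fit was tested on simulated data. A gene in the pathway or marker lists is represented by its brightest probe set. All members are named; of each pathway list up to 4 called genes, and 11 genes of IGF biology whether called or not, are named. Members and lists were chosen with earlier results of these data known. Alternatives covered pseudocounts, scaling, filters, probe set averaging, variance models, the replicate number as a block, each array left out, and sex-linked signal. Array data have no depth, so precision is limited by how many arrays there are. Python 3.11.15 with pandas 2.3.3 made the summaries.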

Additional observations from a re-analysis of the deposited data

How the results depend on the processing

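The 12 member probe sets called higher numbered 7 with eBayes without trend, 7 with median centring, 6 with the brightest probe set of each gene alone or the mean of its probe sets (here counts of genes), 4 in the 3 arrays carrying Xist as well as Y-linked signal, and 1 with a Y-linked covariate. The 1 called lower became 2 with median centring, quantile normalization or the replicate block, 0 in those 3 arrays and 0 with the covariate, and it ranged from 1 to 2 with an array left out. Over the whole table the 1824 higher and 1858 lower calls stood at 28 and 110 with the covariate, 501 and 515 in the 3 arrays, 886 and 903 without trend, 1018 with the brightest probe sets alone (higher), 940 and 1128 with averaged probe sets and 1007 with median centring (higher), the last with 2528 lower, so that 28.5% of calls were higher against 49.5%. With an array left out they ran from 1046 to 1283 and from 1139 to 1574. The 2 higher and 7 lower pathway genes became 0 and 0 with the covariate, 0 and 2 in the 3 arrays and 1 and 2 without trend, 1 higher with median centring or no filter, and from 1 to 3 and from 4 to 8 with an array left out. The cause was not tested.

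Of 465 values of member probe sets under the alternatives, 428 moved by no more than the SD within labels and 37 by more, and none that had been called changed sign. Replicate numbers did not pair the arrays: deviations of same-numbered arrays correlated by 0.00, 0.04 and 0.01 across probe sets, and with the replicate block 2 member probe sets were called lower, the fourth brightest of Igf1r (-0.57) beside that of Igfbp7. Signals near 0 and near the top of the scale limit what the arrays can show.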

Other observations

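Within the Rhau KO label replicate 1 was the highest array for 9 of the 12 member probe sets called higher, whereas it was the highest for 30.6% of all 1824 probe sets called higher. It was also the lowest array for Igfbp7. This was noticed after the values were seen, and several of these probe sets read the same gene. To the digits given, replicate 1 was level with replicate 2 on the called Igf1r probe set, both at 10.43. It was level with replicate 3 on the Igfbp4 probe set that differed by 0.36, both at 9.95. Both probe sets are counted in the 9. Within the label replicate 1 also had the lowest summed erythroid signal, 19641 against 21640 and 26912 in replicates 2 and 3. Its summed endothelial signal was the highest, 16484 against 15164 and 15729. Most other marker sums were extreme in it too, although of any 3 arrays 2 must be the highest and the lowest. It was highest for the epicardial, neural crest and neuronal, liver and skeletal muscle sums. It was lowest for the macrophage and cushion sums and for Y-linked signal, and lay between the others for cardiomyocyte markers. Whether these levels bear on the IGF values was not tested.

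The imprinted regulator gene Plagl1 differed by 0.01 on its brightest probe set, at 14.45 ± 0.03 and 14.46 ± 0.15 (SD, n = 3), while 2 dimmer ones were called higher, at 0.56 and 0.65 (limma adjusted p = 0.00607 and 0.00538). Grb10 and Igf1r also have probe sets that disagree. Irs4, a substrate below the filter and so not tested, was at 5.29, 5.90 and 6.00 under the wildtype label and at 4.34, 4.65 and 4.52 under the Rhau KO label.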
